A study of Gallus gallus with 9 samples.

Results

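The genes described here are those that charge tRNAs with amino acids and those that carry amino acids across membranes, in primary myoblasts from chicken embryo skeletal muscle. They were chosen by symbol, by a rule set with earlier results of these data known. It takes every gene named as an aminoacyl-tRNA synthetase or as a member of the solute carrier families SLC1, SLC3, SLC6, SLC7, SLC36, SLC38 and SLC43. The rule found 76 of 24881 Ensembl genes, of which 11078 carry a symbol. They fall into 19 cytosolic synthetases, 13 mitochondrial synthetases and 44 transporters. All synthetases and 28 of the 44 transporters had enough reads to be tested. The files pair no gene with the synthetase symbols HARS, VARS, HARS2, SARS2, VARS2 or YARS2, with SLC3A2, SLC1A5, SLC6A8 or SLC7A7, or with any SLC43 symbol, so these were not analysed here.

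RNA sequencing gave 9 libraries in 3 groups of 3, all labelled passage 1, from cells grown in RPMI-1640 with penicillin and streptomycin. PM libraries came from myoblasts collected as soon as serial plating, the step that enriches them, was over. GM cells were in growth medium, which held 15% fetal bovine serum. DM cells had spent 4 days in differentiation medium, which held 2% horse serum. GM and DM therefore differ in serum as well as in the state of the cells, and the groups may differ in time in culture. The sample details used here give no serum for PM and no days in culture for PM or GM. Serum, time and state cannot be told apart here. The labels name no strain and leave unsaid whether replicates are separate embryos or cultures, so a p-value here covers the spread among these 9 samples and may be technical.

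Aminoacyl-tRNA synthetases join each amino acid to its tRNA, the step that sets the genetic code and supplies charged tRNA to the ribosome. In animals most amino acids have a pair of nuclear synthetase genes, one for the cytosol and another, with the suffix 2, for the mitochondrion, while GARS and KARS serve both compartments from a single gene. Amino acids reach the cytosol through solute carriers. SLC7A5 exchanges leucine and other large neutral amino acids, SLC7A11 takes up cystine in exchange for glutamate, SLC7A1 and SLC7A3 carry arginine and lysine, and SLC38A1 and SLC38A2 take up glutamine and alanine with sodium. In mammalian cells many of these genes are targets of ATF4, the transcription factor that is translated when amino acids run short, and growing muscle cells need their products for protein synthesis.

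The libraries held 16052542 to 27546527 counted reads, and 14796 genes were tested. The myogenic regulator MYOD1 was at 321 to 344 FPKM (fragment counts scaled by gene length and library depth) in PM, 214 to 288 in GM and 136 to 158 in DM, so the muscle lineage label held in every library. The later regulator MYOG was at 167 to 183 FPKM in PM, 287 to 526 in GM and 274 to 328 in DM, and the muscle filament gene DES at 151 to 158, 541 to 1279 and 133 to 149 FPKM. The 5 matched markers of an 8-gene muscle list summed to 1129 to 1198 FPKM in PM, 1423 to 2313 in GM and 581 to 672 in DM, so the libraries labelled as differentiated were the lowest on that list. The list includes MYOD1 and MYF5, the latter at 380 to 421 FPKM in PM, 185 to 360 in GM and 30.1 to 46.7 in DM. Of these 5 markers 0 rose and 4 fell in DM against GM, where 30.8% and 30.3% of all genes did. In DM against PM 1 rose and 3 fell, where 33.5% and 32.7% of all genes did. MYOG, of the same list, was higher in every DM library than in PM. GM replicate 3 stood apart from the other GM libraries, with the highest DES and the lowest connective tissue sum of all 9. The 9 matched macrophage and leukocyte markers of 10 summed to 814 to 857 FPKM in PM, 87.1 to 195.7 in GM and 165 to 181 in DM. Of these, 9 of 9 fell in GM against PM, where 34.1% of all genes did. In DM against GM 4 of 9 rose and 0 fell, where 30.8% and 30.3% of all genes did. The 9 matched fibroblast and connective tissue markers of 10 summed to 1892 to 1999 FPKM in PM, 1071 to 1869 in GM and 4027 to 4678 in DM. Of the 8 tested, 7 rose and 1 fell in DM against GM, where 30.8% and 30.3% of all genes did. The 8 matched neural, glial and melanocyte markers of 10 summed to 219 to 244 FPKM in PM, 15.2 to 33.1 in GM and 6.55 to 9.52 in DM. The 6 matched epidermal markers of 10 summed to 9.72 to 10.6, 32.8 to 78.9 and 14.5 to 15.4 FPKM, and the 6 matched erythroid markers of 10 to 3.303 to 4.001, 20.7 to 76.8 and 3.75 to 4.44 FPKM, both highest in GM replicate 3. No marker of these lists that the files hold was at 0 in all libraries. The part of these other cells in the results below was not tested. In bulk libraries fewer cells of a type and less RNA per cell cannot be told apart. The deposited lists hold 25950 features in PM and 26591 in GM and DM, so list version and PM cells cannot be told apart.

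The whole set took a larger share of the reads in DM than in the other groups. Its genes held 0.475% to 0.488% of the reads of Ensembl genes in PM, 0.467% to 0.524% in GM and 0.797% to 0.825% in DM, with no overlap between DM and the rest. Most of that difference lay in the transporters and the cytosolic synthetases. The summed FPKM of the 44 transporters came to 477 ± 31.0 (SD, n = 3, here and throughout) in PM, 466 ± 37.0 in GM and 1063 ± 11.7 in DM. The 19 cytosolic synthetases summed to 1426 ± 20.6 FPKM in PM, 1493 ± 84.9 in GM and 2055 ± 70.6 in DM. The 13 mitochondrial synthetases summed to 126 ± 4.75 FPKM in PM, 122.9 ± 6.23 in GM and 136 ± 5.22 in DM, and there the lowest DM library, at 131.5 FPKM, lay next to the highest PM library, at 131.3 FPKM. The ratio of the cytosolic to the mitochondrial sum came to 11.5, 11.4 and 11.03 in the PM libraries, 12.4, 12.1 and 12.002 in GM and 15.4, 14.8 and 15.02 in DM. No groups overlapped on that ratio, and without GARS and KARS the group means were 8.55 ± 0.192, 9.56 ± 0.139 and 11.7 ± 0.220.

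**Figure D1:**
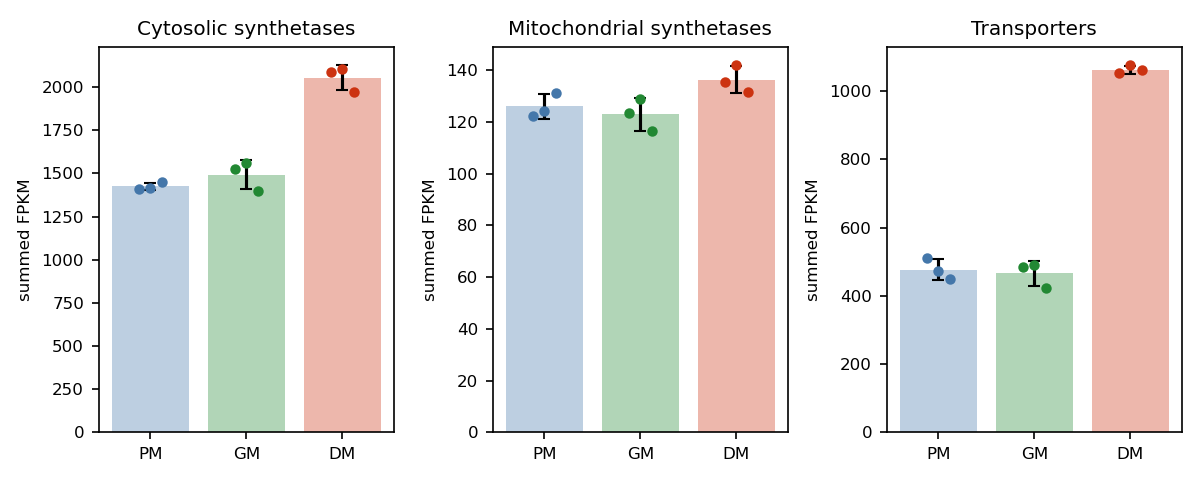
Summed FPKM of the 19 cytosolic synthetases, the 13 mitochondrial synthetases and the 44 transporters in each group, on linear axes that start at 0. Bars are means, error bars are SDs over 3 libraries and points are libraries; the DM bars for cytosolic synthetases (2055) and transporters (1063) stand above those of PM and GM, while the mitochondrial bars lie between 122.9 and 136.

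Changes were tested on the counts with edgeR's quasi-likelihood test over all genes, with calls made where the Benjamini-Hochberg adjusted p was under 0.05. A negative log2 fold change means lower in the group named first. Changes were common everywhere in the transcriptome. In DM against GM 61.1% of all tested genes were called, 30.8% higher and 30.3% lower. Against that background 50 of the 60 tested genes of the set were called, 34 higher and 16 lower. The muscle, connective tissue, neural, epidermal and erythroid sums given above moved with this comparison. The muscle, macrophage, neural, epidermal and erythroid sums moved with GM against PM. In GM against PM 66.1% of all tested genes were called, 32.0% higher and 34.1% lower, and 44 of 60 in the set were called, 24 higher and 20 lower. In DM against PM 66.2% of all tested genes were called, 33.5% higher and 32.7% lower, and 36 of 60 in the set were called, 27 higher and 9 lower. All 3 comparisons share libraries and are not independent of each other. Levels in FPKM are not adjusted for composition. On the log2(FPKM + 0.1) scale the median of all genes in GM against PM lay at 0.13, against -0.01 in the edgeR fit, so small differences between PM and the other groups can differ in sign between a level and a tested change.

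Among the cytosolic synthetases, 11 of 19 rose and 5 fell in DM against GM, where 30.8% and 30.3% of all genes did. Their median log2 fold change was 0.27 against 0.00 over all genes tested. Rises of at least 2-fold were found for 5 of 19, where 12.7% of all genes rose by that much, and the largest fall, of FARSB, was -0.99. WARS, the tryptophan enzyme, was at 28.2, 24.3 and 26.3 FPKM in PM, 29.6, 29.8 and 24.8 in GM, and 73.8, 71.0002 and 66.1 in DM. Its DM libraries lay far above both other groups, which overlapped (edgeR log2 fold change 1.38 with SE 0.09, adjusted p = 1.77e-07). GARS, the glycine enzyme of both compartments, was at 151, 147 and 152 FPKM in PM, 126, 125 and 94.9 in GM, and 288, 269 and 275 in DM. Its 3 groups did not overlap, with GM lowest and GM replicate 3 the lowest library (edgeR log2 fold change 1.32 with SE 0.09, adjusted p = 5.08e-07). SARS, the serine enzyme, was at 183, 199 and 200.1 FPKM in PM, 128, 129.7 and 111 in GM, and 289, 287 and 247 in DM, again with GM lowest and no overlap (edgeR log2 fold change 1.22 with SE 0.09, adjusted p = 5.40e-07). AARS, the alanine enzyme, was at 130.04, 135 and 142 FPKM in PM, 129.6, 137 and 103 in GM, and 256, 268 and 240.4 in DM, where PM and GM overlapped and DM lay above both (edgeR log2 fold change 1.11 with SE 0.09, adjusted p = 1.83e-06). The threonine enzyme TARS followed the same course, from 41.9 ± 7.14 FPKM in GM to 86.01 ± 3.77 in DM (edgeR log2 fold change 1.10 with SE 0.10, adjusted p = 3.23e-06). GARS, SARS, AARS and TARS had each fallen in GM against PM, by log2 fold changes of -0.53, -0.81, -0.29 and -0.29. The AARS call in that comparison was lost without PM replicate 3 (log2 fold change -0.24, edgeR adjusted p = 0.0751), and its fold change was -0.19 without GM replicate 3 and turned to 0.0718 with quantile-normalized FPKM (limma adjusted p = 0.558). It was also lost in the fit of 6 libraries (edgeR adjusted p = 0.0636) and on log2(FPKM + 1) (limma adjusted p = 0.226). The GARS call was lost with quantile-normalized FPKM, at -0.17 (limma adjusted p = 0.196). The TARS call was lost without PM replicate 3, in the fit of 6 libraries and on log2(FPKM + 1). There GARS and SARS were the 2 cytosolic falls still called.

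A different course was a rise at both steps. EPRS, the enzyme for glutamate and proline, was at 54.6, 52.9 and 53.4 FPKM in PM, 100.2, 104 and 99.4 in GM, and 130.4, 133 and 139 in DM. Its groups did not overlap, and it rose in GM against PM (edgeR log2 fold change 0.77 with SE 0.06, adjusted p = 8.36e-07) and again in DM against GM (edgeR log2 fold change 0.46 with SE 0.06, adjusted p = 3.29e-05). IARS, the isoleucine enzyme, was at 37.5, 34.1 and 35.5 FPKM in PM, 56.96, 63.2 and 48.9 in GM, and 89.3, 101 and 99.4 in DM, also without overlap. It had the largest difference of the cytosolic synthetases between DM and PM (edgeR log2 fold change 1.34 with SE 0.08, adjusted p = 1.71e-07). CARS, the cysteine enzyme, rose by 0.27 and then by 0.27, from 33.5 ± 1.497 FPKM in PM through 44.7 ± 2.26 in GM to 51.9 ± 3.93 in DM.

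**Figure D2:**
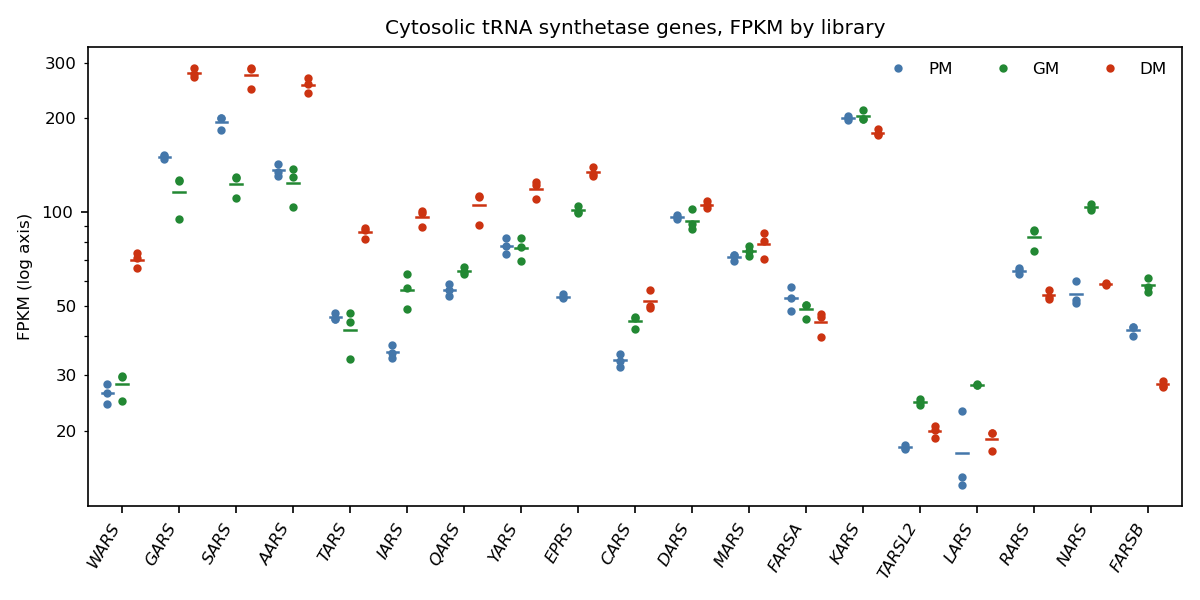
FPKM of the 19 cytosolic synthetases on a log axis in PM, GM and DM, ordered from the largest rise to the largest fall in DM against GM; points are the 3 libraries of a group and short lines are means. WARS, GARS, SARS, AARS and TARS on the left reach their highest levels in DM, while LARS, RARS, NARS and FARSB on the right peak in GM.

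Another course was a peak in GM. NARS, the asparagine enzyme, was at 60.04, 52.2 and 51.1 FPKM in PM, 102, 103 and 106 in GM, and 58.9, 58.4 and 59.3 in DM. PM and DM overlapped, and the rise of 0.78 in GM was followed by a fall of nearly the same size (edgeR log2 fold change -0.76 with SE 0.07, adjusted p = 4.29e-06). LARS, the leucine enzyme, which in mammalian cells also serves as a leucine sensor for the growth kinase mTORC1, was at 23.1, 14.2 and 13.4 FPKM in PM, 27.96, 28.02 and 28.1 in GM, and 17.2, 19.7 and 19.6 in DM. PM replicate 1 lay above the other PM libraries, and LARS rose in GM (edgeR log2 fold change 0.59 with SE 0.17, adjusted p = 0.0116) and fell in DM (edgeR log2 fold change -0.52 with SE 0.17, adjusted p = 0.0217). RARS, the arginine enzyme, and TARSL2, a second cytosolic threonine enzyme, also rose in GM, by 0.21 and 0.33, and fell in DM, by log2 fold changes of -0.56 and -0.25. The values of TARSL2 were 18.01, 17.4 and 17.6 FPKM in PM, 25.2, 24.6 and 24.1 in GM, and 18.9, 20.03 and 20.7 in DM, so that TARS exceeded TARSL2 by 2.61 ± 0.0853 times in PM, 1.70 ± 0.268 times in GM and 4.34 ± 0.353 times in DM.

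The paired subunits of the phenylalanine enzyme differed from each other. FARSB, the beta subunit, was at 42.7, 42.9 and 40.2 FPKM in PM, 61.6, 55.3 and 57.6 in GM, and 28.9, 27.5 and 27.8 in DM. Its fall in DM against GM was the largest of the cytosolic synthetases (edgeR log2 fold change -0.99 with SE 0.07, adjusted p = 5.15e-07). FARSA, the alpha subunit, was at 48.3, 53.2 and 57.4, 50.4, 45.4 and 50.6 and 46.04, 46.99 and 39.9 FPKM, and did not pass the test in DM against GM (edgeR log2 fold change -0.08 with SE 0.10, adjusted p = 0.48). The enzyme is built from equal numbers of both subunits in the species where its structure is known. The FPKM ratio of FARSA to FARSB came to 1.13, 1.24 and 1.43 in PM, 0.818, 0.820 and 0.878 in GM and 1.59, 1.71 and 1.43 in DM. GM thus lay below 1 in every library and PM and DM above 1, with DM replicate 3 and PM replicate 3 next to each other.

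KARS, the lysine enzyme of both compartments, had the highest mean level of all synthetases in PM and GM. It was at 197, 199 and 203 FPKM in PM, 199, 212 and 198 in GM, and 176, 184 and 177 in DM. Its fold changes were small, -0.13 (SE 0.06, edgeR adjusted p = 0.0765) in GM against PM, -0.13 (SE 0.06, edgeR adjusted p = 0.0827) in DM against GM and -0.25 (SE 0.06, edgeR adjusted p = 0.00266) in DM against PM. After quantile normalization of FPKM the sign turned, to 0.31 in GM against PM and 0.14 in DM against PM, so no direction between PM and the other groups is given. KARS moved from 14.01% of the summed cytosolic synthetase FPKM in PM and 13.6% in GM to 8.70% in DM, where GARS, SARS and AARS ranked above it. MARS, the methionine enzyme, passed in neither step, at 71.9 ± 2.07, 75.001 ± 2.88 and 78.9 ± 7.74 FPKM. The other cytosolic members that rose in DM against GM were QARS for glutamine (0.76), YARS for tyrosine (0.69) and DARS for aspartate (0.23).

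Between PM and GM, 8 of 19 cytosolic synthetases rose in GM and 6 fell, where 32.0% and 34.1% of all genes did. The median was -0.05 against -0.01 over all genes. The falls were sensitive to the scale. On log2(FPKM + 1) with limma, a linear model on log values, 2 of the 6 were called lower against 8 higher, without PM replicate 2 there were 3 and without PM replicate 3 there were 2. On log2(FPKM + 1) all genes shifted too, with 57.7% of those called higher, against 48.4% in the edgeR fit. In the fit of only the 6 PM and GM libraries 8 rose and 2 fell, and with quantile-normalized FPKM 10 rose and 1 fell. In DM against PM 10 rose and 4 fell, where 33.5% and 32.7% of all genes did, with a median of 0.41 against 0.02 over all genes. With quantile-normalized FPKM 14 rose and 1 fell. The falls in DM against PM were FARSB (-0.67), FARSA (-0.35), RARS (-0.35) and KARS (-0.25), of which KARS turned to 0.14 with quantile-normalized FPKM. KARS was not the only call lost, since 1 fall was left on that scale and 1 with a 1.5-fold minimum.

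In animals 8 of the matched cytosolic synthetases, DARS, EPRS, IARS, KARS, LARS, MARS, QARS and RARS, are held in the multi-synthetase complex. This division was added with the values known. In DM against GM 4 of these 8 rose and 2 fell, with a median of 0.18. Of the 11 outside the complex 7 rose and 3 fell, with a median of 0.69. Over all genes 30.8% rose and 30.3% fell. The 5 synthetases with at least 2-fold rises in that comparison, WARS, GARS, SARS, AARS and TARS, all lie outside the complex. In DM against PM 2 of the 8 complex members rose by at least 2-fold, IARS (1.34) and EPRS (1.23). Of the 11 others 1 did, WARS (1.33), where 15.9% of all genes did. The summed FPKM of the complex members came to 595 ± 6.34 in PM, 705 ± 26.4 in GM and 771 ± 19.2 in DM, and that of the others 830.3 ± 17.5, 788 ± 61.0 and 1284 ± 58.2. The sum of the complex members was higher in GM than in PM and higher again in DM, without overlap. Yet of the single members 4 of 8 rose in GM against PM, 1 fell and 3 were not called, where 66.1% of all genes were called. The sum of the others overlapped between PM and GM and was higher in DM than in both.

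In DM against GM 6 of 13 mitochondrial synthetases rose and 3 fell, where 61.1% of all genes were called, with a median of 0.00 and a range from -0.56 to 0.84. Those that rose included FARS2, PARS2, TARS2, LARS2 and NARS2, and each of these 5 had fallen in GM against PM. The LARS2 fall there was lost on log2(FPKM + 1) (-0.16, limma adjusted p = 0.154). FARS2, the phenylalanine enzyme, was at 11.9, 11.5 and 12.7 FPKM in PM, 9.22, 10.5 and 8.82 in GM, and 17.1, 16.05 and 15.9 in DM. Its groups did not overlap, with GM lowest and DM highest (edgeR log2 fold change 0.84 with SE 0.10, adjusted p = 1.88e-05). PARS2, the proline enzyme, was at 13.9, 12.3 and 13.5 FPKM in PM, 8.23, 8.56 and 7.26 in GM, and 12.1, 11.8 and 11.01 in DM. It had the largest fall of the class in GM against PM (edgeR log2 fold change -0.87 with SE 0.10, adjusted p = 1.77e-05), rose in DM against GM (edgeR log2 fold change 0.60 with SE 0.10, adjusted p = 3.34e-04) and remained below PM there (edgeR log2 fold change -0.27 with SE 0.10, adjusted p = 0.0293). The last of these calls was lost without PM replicate 1 or 3 and without DM replicate 2 or 3, where the adjusted p ran from 0.0732 to 0.107, and the fold change was -0.07 with the gene length trend removed.

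TARS2, the threonine enzyme, was at 15.5, 16.6 and 18.2 FPKM in PM, 13.5, 11.6 and 14.4 in GM, and 19.9, 18.9 and 15.3 in DM, and DM replicate 3 lay apart from the other DM libraries and close to GM (edgeR log2 fold change 0.51 with SE 0.13, adjusted p = 0.00461). LARS2, the leucine enzyme, was at 13.7, 12.7 and 13.4, 12.6, 12.2 and 10.4 and 14.2, 16.4 and 16.5 FPKM, with DM above both other groups (edgeR log2 fold change 0.47 with SE 0.09, adjusted p = 7.64e-04). NARS2, the asparagine enzyme, was at 9.93, 10.9 and 11.8, 8.23, 9.42 and 8.27 and 10.8, 12.5 and 10.6 FPKM, with GM below both others (edgeR log2 fold change 0.44 with SE 0.11, adjusted p = 0.00497).

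**Figure D3:**
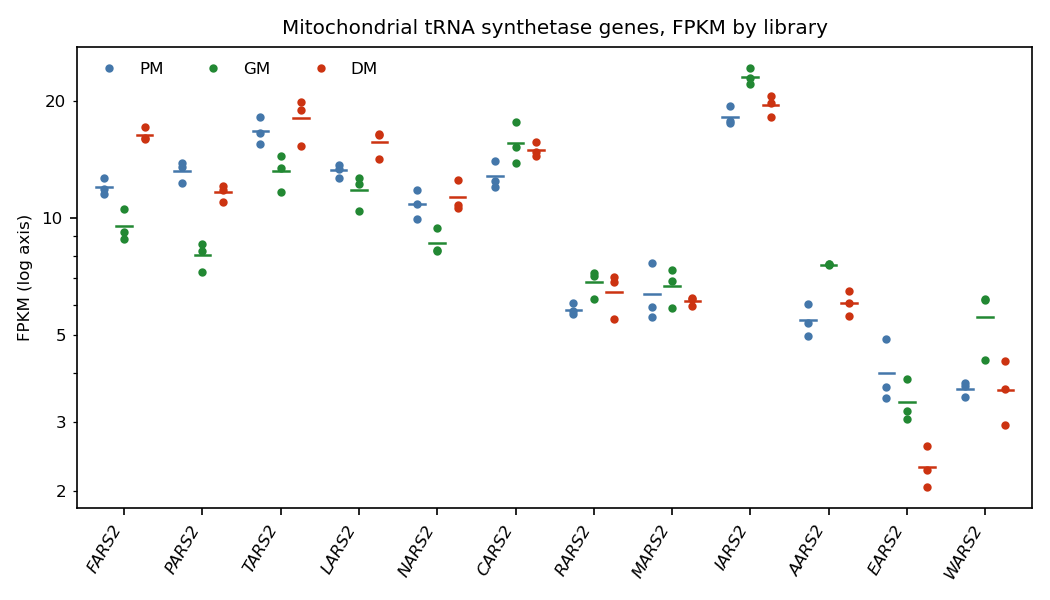
FPKM of 12 mitochondrial synthetases on a log axis in PM, GM and DM, ordered from the largest rise to the largest fall in DM against GM; points are libraries and short lines are group means. The 5 genes on the left have their lowest mean in GM. AARS2, CARS2, IARS2, MARS2, RARS2 and WARS2 have their highest mean there, and all values lie between 2.04 and 24.2 FPKM.

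The falls in DM against GM were AARS2 for alanine (edgeR log2 fold change -0.27 with SE 0.10, adjusted p = 0.0371), EARS2 for glutamate (edgeR log2 fold change -0.49 with SE 0.17, adjusted p = 0.0284) and WARS2 for tryptophan (edgeR log2 fold change -0.56 with SE 0.18, adjusted p = 0.0185). This count of 3 went to 0 without GM replicate 1 or DM replicate 1 and to 1 without GM replicate 2 or DM replicate 3. WARS2 was at 3.71, 3.47 and 3.77 FPKM in PM, 6.18, 6.202 and 4.33 in GM, and 2.95, 3.64 and 4.29 in DM, and GM replicate 3 lay near the highest DM library. Its DM against GM call was lost without GM replicate 1 or 2 or DM replicate 1 or 2, at adjusted p of 0.0522 to 0.0793. The GM against PM call (edgeR log2 fold change 0.45 with SE 0.18, adjusted p = 0.0468) was lost without any of PM replicates 1 to 3, GM replicate 1 or 2 or DM replicate 2, at adjusted p of 0.0624 to 0.144. EARS2 had the largest fall of the class in DM against PM (edgeR log2 fold change -0.89 with SE 0.18, adjusted p = 8.86e-04).

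Of the mitochondrial members 2 rose in GM against PM, AARS2 and WARS2, and 6 fell, where 32.0% and 34.1% of all genes did. The median was -0.32 against -0.01 over all genes. The 2 rises went to 0 without PM replicate 1 or 2 and to 1 without GM replicate 1 or 2 or DM replicate 2. With limma on log2(FPKM + 1) 4 rose and 4 fell, with 6 libraries 3 rose and 5 fell, and with quantile-normalized FPKM 1 rose and 7 fell. On log2(FPKM + 1) the calls of all genes shifted too, from 48.4% to 57.7% higher. In DM against PM only FARS2 rose (edgeR log2 fold change 0.35 with SE 0.10, adjusted p = 0.0071), EARS2 and PARS2 fell, and 10 of 13 were not called, where 66.2% of all genes were called. With the gene length trend removed 2 rose and 1 fell in that comparison. IARS2, the isoleucine enzyme and the most abundant member, was at 17.7, 17.5 and 19.4 FPKM in PM, 22.1, 24.2 and 22.8 in GM, and 20.6, 19.8 and 18.2 in DM, with GM above both others. It missed the threshold in GM against PM (edgeR log2 fold change 0.19 with SE 0.08, adjusted p = 0.0661) and passed it without PM replicate 3 (0.26, edgeR adjusted p = 0.0328) and with DESeq2 size factors (0.21, edgeR adjusted p = 0.0481). It lies near EPRS on chromosome 3 in the files' coordinates, whose build is not given in the sources used here, IARS2 at 18807578 to 18832220 on the minus strand and EPRS at 18846482 to 18883499 on the plus strand. EPRS rose by 1.23 in DM against PM, where IARS2 stood at 0.01 (SE 0.09, edgeR adjusted p = 0.937).

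Set beside each other, the cytosolic and mitochondrial enzymes for one amino acid did not keep a fixed ratio. The FPKM ratio of NARS to NARS2 came to 5.06 ± 0.885 in PM, 12.02 ± 0.986 in GM and 5.25 ± 0.504 in DM, since NARS was highest where NARS2 was lowest. The ratio of WARS to WARS2 came to 7.19 ± 0.351 in PM, 5.11 ± 0.539 in GM and 19.99 ± 4.83 in DM, and that of AARS to AARS2 24.9 ± 1.80, 16.2 ± 2.33 and 42.2 ± 3.12. For IARS and IARS2 the ratio came to 1.97 ± 0.145 in PM, 2.44 ± 0.258 in GM and 4.98 ± 0.579 in DM. For the tryptophan, alanine and isoleucine pairs DM stood above GM by more than the spread of the libraries. MARS and MARS2, with 11.4 ± 1.67, 11.3 ± 1.67 and 12.8 ± 0.921, differed less between groups. LARS and LARS2 stood at 1.27 ± 0.368 in PM, 2.40 ± 0.262 in GM and 1.202 ± 0.0102 in DM. These ratios carry no test.

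**Figure D4:**
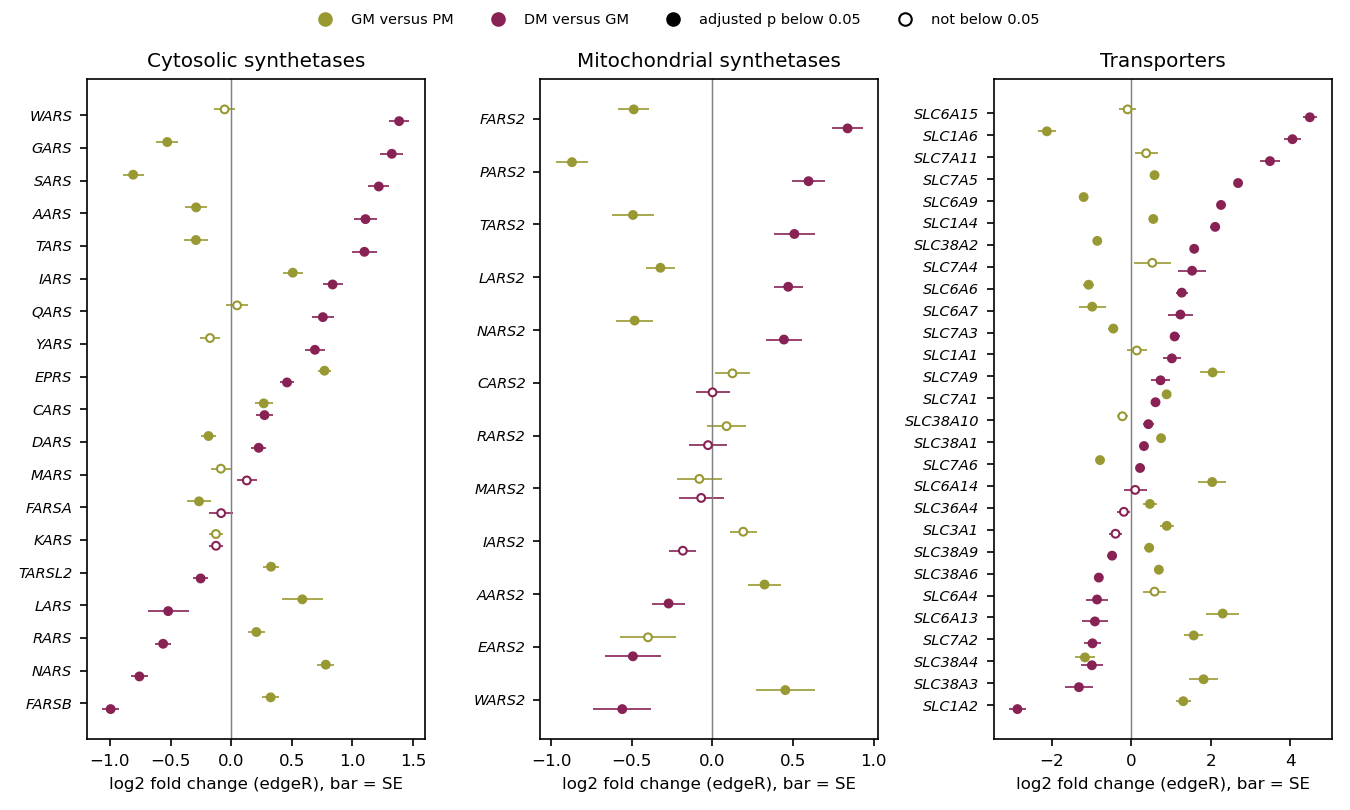
Log2 fold changes with their SEs from the edgeR fit for 59 of the 60 tested genes, GM against PM in olive and DM against GM in purple; filled points have an adjusted p below 0.05 and open points do not, and the scales of the panels differ. Purple points reach 1.38 for cytosolic synthetases, 0.84 for mitochondrial ones and 4.49 for transporters, and the 5 genes at the top of the mitochondrial panel have olive points below 0.

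Transporters showed the widest range. In DM against GM 17 of the 28 tested rose and 8 fell, where 30.8% and 30.3% of all genes did, and 12 rose and 2 fell by at least 2-fold, where 12.7% and 11.1% of all genes did. The median was 0.52, and with all 44 entered, without a filter on low counts, it was -0.0015. In GM against PM 14 rose and 8 fell, where 32.0% and 34.1% of all genes did, with a median of 0.50. In DM against PM 16 rose and 3 fell, where 33.5% and 32.7% of all genes did, with a median of 0.68. By family, SLC7 had 7 rises and 1 fall among its 8 tested genes in DM against GM, SLC1 had 3 and 1 of 4, SLC6 had 4 and 2 of 7, and SLC38 had 3 and 4 of 7. The FPKM sum of SLC7 went from 156 ± 1.37 in PM and 161 ± 14.3 in GM to 434 ± 25.3 in DM, that of SLC1 from 21.8 ± 2.58 and 36.6 ± 7.27 to 125 ± 0.920, that of SLC6 from 105 ± 12.1 and 57.0 ± 3.73 to 189 ± 4.53 and that of SLC38 from 190 ± 15.0 and 205 ± 19.0 to 309 ± 31.1. In each of these families DM was above every other library.

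SLC7A5 had the smallest adjusted p of the set. The gene lies on chromosome 11 at 18186088 to 18218511, minus strand. It was at 21.8, 20.5 and 18.04 FPKM in PM, 33.7, 33.05 and 33.5 in GM, and 215, 213 and 193 in DM. Its groups did not overlap, and the GM libraries lay close together. It rose in GM against PM (edgeR log2 fold change 0.59 with SE 0.08, adjusted p = 6.01e-05) and by more in DM against GM (edgeR log2 fold change 2.69 with SE 0.08, adjusted p = 1.65e-09). Among the transporters it ranked number 8 by mean FPKM in PM, 5 in GM and 1 in DM, where it made up 19.5% ± 1.14 of the class sum after 4.21% ± 0.174 in PM and 7.20% ± 0.618 in GM. Its relative SLC7A6, which exchanges cationic for neutral amino acids, was at 37.5, 35.7 and 37.7 FPKM in PM, 23.5, 24.5 and 23.3 in GM, and 24.6, 27.2 and 28.1 in DM. SLC7A6 fell in GM (edgeR log2 fold change -0.79 with SE 0.08, adjusted p = 4.88e-06), and its rise in DM against GM (edgeR log2 fold change 0.22 with SE 0.08, adjusted p = 0.0246) was lost without GM replicate 1 or DM replicate 2 or 3. The FPKM ratio of SLC7A5 to SLC7A6 thereby passed from 0.545 ± 0.0573 in PM through 1.41 ± 0.0511 in GM to 7.81 ± 0.924 in DM.

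SLC7A11, the cystine carrier, was at 1.24, 0.676 and 1.23 FPKM in PM, 1.92, 1.81 and 0.892 in GM, and 17.4, 16.2 and 15.9 in DM. DM was far above both other groups, which overlapped, with PM replicate 2 and GM replicate 3 the lowest libraries (edgeR log2 fold change 3.49 with SE 0.25, adjusted p = 5.48e-07). It did not pass in GM against PM (edgeR log2 fold change 0.37 with SE 0.29, adjusted p = 0.278), though without GM replicate 3 it did (0.65, edgeR adjusted p = 0.0195). Of the cationic carriers, SLC7A1 was at 17.7, 14.8 and 13.4 FPKM in PM, 31.8, 31.4 and 30.9 in GM, and 44.2, 47.8 and 46.1 in DM, with no overlap and a rise at each step (edgeR log2 fold change 0.89 with SE 0.09, adjusted p = 7.57e-06, then edgeR log2 fold change 0.61 with SE 0.09, adjusted p = 1.13e-04). SLC7A3 was at 77.6, 81.1 and 83.7 FPKM in PM, 74.5, 70.5 and 51.96 in GM, and 147, 137 and 117 in DM, lowest in GM replicate 3 and highest in DM (edgeR log2 fold change 1.09 with SE 0.12, adjusted p = 2.06e-05). Its fall in GM (edgeR log2 fold change -0.45 with SE 0.12, adjusted p = 0.00742) missed the threshold with limma on log2(FPKM + 1) (adjusted p = 0.0576) and with quantile-normalized FPKM (-0.18, limma adjusted p = 0.248). SLC7A3 exceeded SLC7A1 by 5.37 ± 0.944 times in PM, 2.09 ± 0.360 times in GM and 2.92 ± 0.398 times in DM. SLC7A2, the remaining cationic carrier, went the other way, from 1.19 ± 0.247 FPKM in PM to 3.92 ± 1.02 in GM and 1.91 ± 0.354 in DM (log2 fold change 1.57, then -0.98). SLC7A9 and SLC3A1, which together form a carrier for cystine and basic amino acids in kidney, were both low, at 1.39 ± 0.298 and 2.29 ± 0.05096 FPKM in DM, and both rose in GM against PM (2.05 and 0.89). The SLC7A9 rise started from a PM mean of 0.182 FPKM, close to the level of genes with too few reads for a test.

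**Figure D5:**
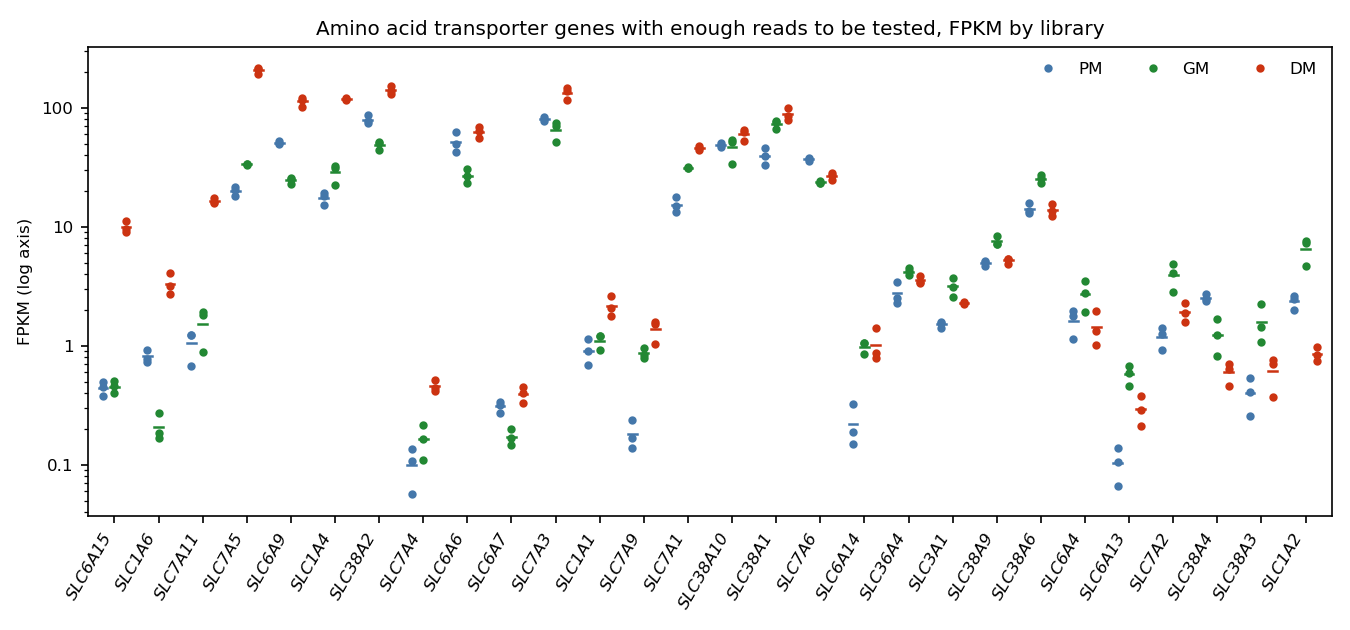
FPKM of the 28 tested transporters on a log axis in PM, GM and DM, ordered from the largest rise to the largest fall in DM against GM; points are libraries and short lines are group means. SLC7A5, SLC6A9, SLC1A4, SLC38A2 and SLC7A3 exceed 100 FPKM in every DM library, SLC6A15 goes from at most 0.504 FPKM in PM and GM to at least 9.03 in DM, and SLC1A2 on the far right falls to 0.747 to 0.972 FPKM in DM.

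The carriers of small neutral amino acids were among the most abundant. SLC38A2, which mammalian cells induce when amino acids are withdrawn, was at 86.3, 78.3 and 74.01 FPKM in PM, 51.1, 51.3 and 43.8 in GM, and 129.9, 138 and 154 in DM. GM was lowest and DM highest, without overlap (GM against PM edgeR log2 fold change -0.86 with SE 0.08, adjusted p = 4.36e-06, and DM against GM edgeR log2 fold change 1.58 with SE 0.08, adjusted p = 5.40e-08). SLC38A1 was at 45.6, 39.6 and 33.2 FPKM in PM, 76.5, 78.2 and 65.8 in GM, and 78.3, 85.7 and 101 in DM, where the lowest DM library lay next to the highest GM library. It rose in GM (edgeR log2 fold change 0.75 with SE 0.11, adjusted p = 1.38e-04), while its DM against GM call (edgeR log2 fold change 0.32 with SE 0.11, adjusted p = 0.0273) was lost without GM replicate 3 or DM replicate 3 (adjusted p = 0.0674 and 0.115), with limma on FPKM and with the gene length trend removed (adjusted p = 0.0565). SLC1A4, a carrier of serine, alanine and cysteine, was at 19.3, 18.1 and 15.3 FPKM in PM, 30.97, 32.5 and 22.4 in GM, and 119.9, 119.6 and 116 in DM. Its 3 DM libraries lay close together, far above every other library, and the gene rose at both steps (edgeR log2 fold change 0.55 with SE 0.12, adjusted p = 0.00164, then edgeR log2 fold change 2.11 with SE 0.12, adjusted p = 9.21e-08).

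SLC38A1, SLC38A2 and SLC38A4 lie in a row on the minus strand of chromosome 1, SLC38A1 at 30936731 to 30961242, SLC38A2 at 30985306 to 31000366 and SLC38A4 at 31101534 to 31122087. These neighbours moved differently. In GM against PM the log2 fold changes were 0.75, -0.86 and -1.17, all called. In DM against GM they were 0.32, 1.58 and -0.99. SLC38A4 was low, at 2.402, 2.47 and 2.72 FPKM in PM, 0.815, 1.22 and 1.69 in GM, and 0.707, 0.463 and 0.639 in DM.

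Other SLC38 genes peaked in GM. SLC38A6 was at 15.9, 13.6 and 13.1 FPKM in PM, 23.2, 25.8 and 27.2 in GM, and 12.4, 13.6 and 15.7 in DM, with GM above both others, which overlapped (edgeR log2 fold change 0.69 with SE 0.11, adjusted p = 1.94e-04, then edgeR log2 fold change -0.82 with SE 0.11, adjusted p = 6.45e-05). SLC38A9, a lysosomal arginine sensor of mTORC1 in mammalian cells, was at 4.72, 5.202 and 5.09 FPKM in PM, 7.19, 7.23 and 8.32 in GM, and 4.89, 5.39 and 5.399 in DM, again with GM highest (edgeR log2 fold change 0.45 with SE 0.12, adjusted p = 0.00589, then edgeR log2 fold change -0.48 with SE 0.12, adjusted p = 0.00413). SLC38A3, a glutamine carrier, rose from 0.399 ± 0.1395 FPKM in PM to 1.58 ± 0.597 in GM and fell to 0.612 ± 0.208 in DM. SLC38A10 was at 48.8 ± 1.698, 46.5 ± 10.9 and 60.1 ± 6.63 FPKM and rose in DM against GM (edgeR log2 fold change 0.43 with SE 0.14, adjusted p = 0.0198), with GM replicate 3, at 33.9 FPKM, the lowest of the 9 libraries. SLC36A4, the single SLC36 gene found, passed in GM against PM (edgeR log2 fold change 0.47 with SE 0.17, adjusted p = 0.0303).

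The glutamate carriers of the SLC1 family are best known from brain and were low here. SLC1A2 was at 2.603, 2.48 and 2.01 FPKM in PM, 7.54, 7.299 and 4.65 in GM, and 0.747, 0.972 and 0.838 in DM, with no overlap. It rose in GM (edgeR log2 fold change 1.31 with SE 0.19, adjusted p = 8.90e-05) and had the largest fall of the set in DM against GM (edgeR log2 fold change -2.86 with SE 0.20, adjusted p = 5.44e-07). SLC1A6 ran the opposite way, with 0.776, 0.736 and 0.929 FPKM in PM, 0.169, 0.273 and 0.184 in GM, and 3.16, 2.75 and 4.09 in DM (edgeR log2 fold change 4.06 with SE 0.22, adjusted p = 7.21e-08). Its read counts were 69, 68 and 108 in PM, 23, 35 and 28 in GM and 412, 348 and 496 in DM. SLC1A1 rose from 1.11 ± 0.165 to 2.16 ± 0.424 FPKM (edgeR log2 fold change 1.02 with SE 0.24, adjusted p = 0.0028).

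In the SLC6 family the largest change of the set was found. SLC6A15, a carrier of branched-chain amino acids and proline, was at 0.498, 0.454 and 0.381 FPKM in PM, 0.462, 0.399 and 0.504 in GM, and 11.2, 9.57 and 9.03 in DM. PM and GM overlapped and DM lay far above them (edgeR log2 fold change 4.49 with SE 0.17, adjusted p = 6.90e-09). Its read counts were 27, 22 and 33 in GM and 629, 521 and 470 in DM. SLC6A9, the glycine transporter GLYT1, was at 52.97, 50.3 and 49.6 FPKM in PM, 25.2, 22.9 and 25.7 in GM, and 120.4, 117 and 102 in DM. It fell in GM (edgeR log2 fold change -1.20 with SE 0.09, adjusted p = 7.30e-07) and rose in DM beyond its PM level (edgeR log2 fold change 2.26 with SE 0.09, adjusted p = 7.83e-09), with 3 separate groups. SLC6A6, the taurine transporter, was at 62.2, 49.3 and 42.5 FPKM in PM, 23.3, 26.7 and 30.8 in GM, and 55.2, 63.8 and 68.96 in DM. It fell in GM (edgeR log2 fold change -1.07 with SE 0.15, adjusted p = 8.81e-05) and rose in DM (edgeR log2 fold change 1.27 with SE 0.15, adjusted p = 3.03e-05), where PM and DM overlapped (edgeR log2 fold change 0.20 with SE 0.14, adjusted p = 0.244), a comparison that passed without PM replicate 1 (0.35, edgeR adjusted p = 0.0439).

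The other tested SLC6 genes stayed below 4 FPKM in every library. SLC6A7, a proline carrier, rose in DM against GM (1.24) from 0.172 ± 0.0269 to 0.393 ± 0.0611 FPKM. SLC6A13, a carrier of the neurotransmitter GABA, and SLC6A4, the serotonin transporter, fell (-0.91 and -0.86). SLC6A14, a broad carrier of neutral and basic amino acids, rose in GM against PM (2.04), from a low mean of 0.220 FPKM to 0.986. Its log2 fold change in DM against GM was 0.10 (SE 0.29, edgeR adjusted p = 0.783). The symbol rule takes the SLC6 family whole, so it includes carriers whose main substrates are not amino acids. The 16 transporters with too few reads for a test included SLC1A3, SLC1A7, SLC38A8, SLC38A11, SLC6A2, SLC6A5, SLC6A11, SLC6A12, SLC6A17, SLC6A18, SLC6A19, SLC6A20, SLC7A10, SLC7A13 and SLC7A14. Their highest group mean was 0.171 FPKM, and 0 of the 16 lacked reads in every library. SLC7A14 had 4 reads in PM, 28 in GM and 0 in DM over the 3 libraries of each group. These genes had too few reads for the filter, and no call is given for any of them. With no filter on low counts, transporter rises and falls went from 14 and 8 to 16 and 7 in GM against PM, from 17 and 8 to 17 and 9 in DM against GM and from 16 and 3 to 18 and 4 in DM against PM.

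Other genes of amino acid supply were taken from lists. Of 26 genes of the integrated stress and amino acid response, 15 were matched to a tested gene, and in DM against GM 13 rose, with a median of 1.08 and 8 rises of at least 2-fold. Over all genes 30.8% rose, and 12.7% by at least 2-fold. All 15 fold changes were above 0, from 0.04 to 4.53 on the log2 scale. Both genes not called, STC2 and VLDLR, had edgeR adjusted p of 0.747 and 0.0842. CHAC1, which breaks down glutathione, was at 18.2, 20.02 and 17.5 FPKM in PM, 8.39, 9.39 and 7.15 in GM, and 222, 180.2 and 149 in DM (edgeR log2 fold change 4.53 with SE 0.16, adjusted p = 8.93e-09). PHGDH, the first enzyme of serine synthesis, was at 33.6, 37.9 and 36.5 FPKM in PM, 57.6, 58.7 and 95.99 in GM, and 1469, 1599 and 1359 in DM (edgeR log2 fold change 4.43 with SE 0.22, adjusted p = 2.23e-07). PSPH, its last enzyme, went from 8.87 ± 0.3201 FPKM in GM to 62.7 ± 3.62 in DM (edgeR log2 fold change 2.88 with SE 0.08, adjusted p = 1.10e-09). The DM libraries stood above every GM and PM library for all of these. The middle enzyme PSAT1 rose by 2.47, the asparagine synthetase ASNS by 1.97 and ATF4 itself by 0.85, from 545 ± 37.7 to 945 ± 87.7 FPKM.

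Of those 15 genes 2 rose in GM against PM, PHGDH and the amino acid sensor kinase EIF2AK4, and 8 fell. Over all genes 32.0% rose and 34.1% fell. The median of the 15 was -0.33. CHAC1 fell by a log2 fold change of -1.31, ASNS by -0.47 and ATF4 by -0.33. GARS, SARS, AARS, TARS, SLC38A2, SLC6A9 and SLC7A3 were also called lower in GM than in PM and higher in DM than in GM. The same 2 calls were held by other genes of the set, among them SLC6A6, SLC7A6, FARS2, PARS2, TARS2, LARS2 and NARS2. The GM against PM call was lost for AARS, TARS, GARS, SLC7A3 and LARS2 under the alternatives given beside them. The DM against GM call was likewise lost for SLC7A6. EPRS, IARS, CARS, SLC7A5, SLC7A1, SLC1A4 and SLC38A1 instead rose in both comparisons, SLC38A1 with the limits given above. In DM against PM 11 of the 15 rose and STC2, VLDLR and EIF4EBP1 fell, where 33.5% and 32.7% of all genes did.

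Of 11 genes for proteins that assist charging, 8 were matched, of which 1 rose and 5 fell in GM against PM, 2 rose and 2 fell in DM against GM, and 5 fell in DM against PM. The shares of all genes called in these comparisons were 66.1%, 61.1% and 66.2%. AIMP2, a scaffold of the multi-synthetase complex, was at 82.2, 85.4 and 85.3 FPKM in PM, 74.8, 76.2 and 74.9 in GM, and 53.8, 56.3 and 51.01 in DM, with no overlap and a fall at each step (edgeR log2 fold change -0.31 with SE 0.07, adjusted p = 0.00141, then edgeR log2 fold change -0.43 with SE 0.07, adjusted p = 1.70e-04). AIMP1, another scaffold, fell from 87.96 ± 6.5995 FPKM in PM to 69.2 ± 3.83 in GM (edgeR log2 fold change -0.50 with SE 0.07, adjusted p = 1.24e-04), and its DM level was 60.3 ± 1.79. AARSD1, which clears wrongly charged alanine tRNA, fell in GM (edgeR log2 fold change -0.75 with SE 0.09, adjusted p = 2.09e-05) and rose in DM (edgeR log2 fold change 0.35 with SE 0.09, adjusted p = 0.00538).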

How the data were processed

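RNA sequencing libraries of 9 chicken myoblast samples were analysed from deposited tables, 1 per sample. The submitters' processing notes name HISAT for alignment and HTSeq for counting. Versions, build and strand setting are not given in the sources used, so overlapping genes cannot be told apart. Each table lists a raw read count per gene, as the authors deposited it, and an FPKM value computed by the authors, per the file headers. The count of each library was compared over 24881 Ensembl genes. Features without an Ensembl identifier, with 1.58% to 2.12% of the reads and 0 genes of the set, were left out, as were 2 broken lines in each GM and DM table. A floor of 3 reads amounts to 0.111 to 0.191 CPM, counting error only.

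The genes of the set and all lists were chosen with earlier results of these data known. Genes kept by filterByExpr (14796) were TMM-normalised and entered a robust quasi-likelihood fit of all 9 samples (edgeR 4.0.16, R 4.3.3) with no block and with Benjamini-Hochberg adjustment over all genes tested. An SE here is |log2 fold change| over the root of edgeR's F. Genes named with values in every sample were, per class, up to 6 with the largest called change and at least 5 FPKM, the 2 with the highest level, and a fixed list (SLC7A11, SLC7A5, SLC7A1, SLC38A2, SLC1A4, SLC6A6, AARS, GARS, KARS and TARSL2). From the other lists up to 3 called genes with at least 5 FPKM were taken. Further genes were named after their values were seen. Counts of replicates differed beyond sampling noise, with a chi-square per gene of 6.10 to 64.02. In simulated counts changes of 1.5-fold, 2-fold and 4-fold were put into 67, 67 and 66 of 14796 genes, all above the median read level. The test for DM against GM recovered 68.7%, 92.5% and 98.5% of these, and called 14 unchanged genes of 14552 tested. Recovery of less abundant genes was not simulated, and far fewer genes changed than the 61.1% called in the data. Alternatives were no filter, DESeq2 1.42.0, edgeR with DESeq2 size factors, limma 3.58.1 on log2(FPKM + 1), on log2(FPKM + 0.1) and on quantile-normalized values, a replicate block, removal of the gene length trend (lowess, span 0.3), 6-sample fits, a 1.5-fold minimum, leaving out each sample, and leaving out GARS and KARS. Symbols were those of the files, and 75 of 76 are in the RefSeq gene table. Promoter and protein sequences were not used here. Values of 2 genes of the set are not reported here one by one, though class counts and sums include them.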

Additional observations from a re-analysis of the deposited data

How the results depend on the processing

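Of the counts and medians of the 3 classes and of all genes, 569 values under alternatives stayed within 1.5 times of the reported count, or within the spread of the median, and 58 did not. DESeq2 and its size factors moved none of them past that limit. Single genes were followed for the 29 chosen by the naming rule only, most of them for a large called change or a high level here. The share kept among them therefore does not stand for the other tested genes. For these 29, 1566 values kept their direction and their side of the threshold, 68 lost the call and 16 gained it. The other 3 reversed, all 3 with quantile-normalized FPKM. These were AARS in GM against PM (0.0718, limma adjusted p = 0.558) and KARS in GM against PM (0.31) and in DM against PM (0.14).

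With a 1.5-fold minimum, cytosolic synthetases called went to 3 higher and 1 lower in GM against PM, 2 lower in DM against GM and 1 lower in DM against PM. Mitochondrial synthetases went to 0 higher and 1 lower in GM against PM, 2 higher and 0 lower in DM against GM, and 0 higher and 1 lower in DM against PM. The minimum lowered calls over all 14796 tested genes too. All genes called lower went from 4478 to 2754 in DM against GM and from 4837 to 3135 in DM against PM. The other counts of all genes stayed within 1.5 times of those reported.

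With limma on log2(FPKM + 1) the falls of cytosolic synthetases in GM against PM went from 6 to 2 and their median from -0.05 to 0.0899, mitochondrial rises there from 2 to 4 with a median of -0.16, and mitochondrial falls in DM against PM from 2 to 1. The transporter median went to 0.29 in DM against GM and 0.41 in DM against PM. With log2(FPKM + 0.1) these were 2, 0.0928, 4, -0.18 and 1. With quantile-normalized values cytosolic falls were 1 in GM against PM (median 0.27) and 1 in DM against PM (median 0.67), mitochondrial rises 1 in GM against PM, the mitochondrial median -0.10 in DM against PM, and the transporter medians 0.30, 0.32 and 0.43 in GM against PM, DM against GM and DM against PM. Without a filter, mitochondrial rises in GM against PM and falls in DM against PM were 1 each, and the transporter median in DM against GM was -0.0015, with more genes in it. With 6 samples cytosolic falls in GM against PM were 2. Without GARS and KARS the cytosolic median there was 0.0483. On log2(FPKM + 1) all genes moved as well in GM against PM, with a median of 0.09 against -0.01 in the edgeR fit. Of all genes called there 57.7% were higher, against 48.4% in the edgeR fit. Relative to all genes the cytosolic median there was -0.04 as reported and -0.003 on that scale. The mitochondrial one was -0.31 and -0.25. The causes were not tested.

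With the gene length trend removed, the median of all genes went from -0.01 to 0.13 in GM against PM and from 0.02 to 0.15 in DM against PM, and the split of all genes called in GM against PM from 48.4% to 58.5% higher. The cytosolic median was then 0.52 and the calls of mitochondrial members 2 higher and 1 lower in DM against PM, and the transporter median 0.65 in GM against PM. Relative to all genes, the transporter median in GM against PM was 0.51 as reported and 0.52 with the trend removed, and the cytosolic median in DM against PM 0.39 and 0.38.

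Leaving out 1 library, mitochondrial falls ran from 0 to 3 in DM against GM and from 1 to 2 in DM against PM, mitochondrial rises from 0 to 2 in GM against PM, and cytosolic falls in GM against PM from 2 to 7. Without GM replicate 3, which stood apart, no count of a class moved by over 1.5 times, and the SLC38A1 call in DM against GM was lost while SLC7A11 passed in GM against PM.

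No pairing of the samples by replicate number was seen. Deviations of same-numbered libraries correlated at -0.107 to 0.101, which cannot show whether such libraries share an embryo or culture. With the replicate block mitochondrial rises in GM against PM went from 2 to 1, as WARS2 was lost (0.45, edgeR adjusted p = 0.0785). Every other call of the 29 genes followed singly stayed on its side of the threshold. Mitochondrial falls in DM against GM went from 3 to 2. Depth limits the 16 untested transporters and the carriers below 1 FPKM.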

Other observations

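Of 26 genes of amino acid sensing by the growth kinase mTORC1, 17 were matched. In GM against PM 5 rose and 10 fell, with a median of -0.35, where 66.1% of all genes were called. The 5 that rose had listed lengths of 7609 (MTOR), 5502 (TSC2), 4866 (DEPDC5), 4125 (RPTOR) and 3138 (RRAGC). The longest that fell was TFEB, at 3253, while LAMTOR1, LAMTOR2 and CASTOR1 had 438, 378 and 879. Removing the length trend moved the median of all genes in this comparison, as given above. The part of gene length in the changes of this list was not tested. MTOR, the kinase itself, was at 8.73, 7.22 and 7.304 FPKM in PM, 22.5, 22.2 and 28.1 in GM and 9.78, 11.9 and 12.5 in DM, so the GM libraries lay above both other groups (edgeR log2 fold change 1.502 with SE 0.12, adjusted p = 2.10e-06, then edgeR log2 fold change -1.04 with SE 0.12, adjusted p = 2.69e-05). Its partner RPTOR followed the same course, from 8.22 ± 0.631 FPKM in PM to 15.4 ± 0.972 in GM and 8.97 ± 1.01 in DM. LARS, SLC38A6 and SLC38A9 above did so too, as did NARS, RARS, TARSL2 and SLC1A2, among others of the set. The course was thus not particular to genes tied to mTORC1. MLST8, of the same list, went the other way, from 53.8 ± 3.64 FPKM in PM to 42.4 ± 2.84 in GM and 48.2 ± 2.21 in DM (edgeR log2 fold change -0.49 with SE 0.08, adjusted p = 3.06e-04, then edgeR log2 fold change 0.24 with SE 0.08, adjusted p = 0.0255). The Ragulator genes LAMTOR1, LAMTOR2 and LAMTOR3, whose products anchor the pathway on the lysosome, had their highest levels in PM. LAMTOR2 was at 218, 266 and 254 FPKM in PM, 97.7, 112 and 87.6 in GM and 178, 185 and 162 in DM (edgeR log2 fold change -1.46 with SE 0.10, adjusted p = 6.04e-07, then edgeR log2 fold change 0.88 with SE 0.10, adjusted p = 2.07e-05).

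CASTOR1, an arginine sensor that restrains mTORC1 in mammalian cells, was at 50.6, 51.7 and 53.2 FPKM in PM, 35.8, 29.3 and 26.5 in GM and 10.6, 10.6 and 7.64 in DM. It fell at each step without overlap (edgeR log2 fold change -0.91 with SE 0.14, adjusted p = 1.20e-04, then edgeR log2 fold change -1.60 with SE 0.15, adjusted p = 3.13e-06). The arginine carrier SLC7A1 rose at each step, but the other cationic carriers did not. The more abundant SLC7A3 went by -0.45 and then 1.09, and SLC7A2 had its highest mean in GM. SESN1, a leucine sensor of the pathway, rose in DM against GM from 19.5 ± 2.0003 to 29.4 ± 2.06 FPKM (edgeR log2 fold change 0.65 with SE 0.09, adjusted p = 1.09e-04). TSC2 and DEPDC5, whose products restrain mTORC1, rose in GM against PM by 1.10 and 0.98 and did not pass in DM against GM, where edgeR adjusted p was 0.0922 and 0.609. In DM against GM 6 of the 17 rose and 4 fell, where 61.1% of all genes were called, and in DM against PM 4 rose and 8 fell, where 66.2% were.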
